A study of Mus musculus with 12 samples.

Results

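Heat shock chaperones were examined in tumor cells sorted from the brains of FVB mice that carried glioma-like tumors with high (pEGFR-Hi) or low (pEGFR-Lo) activity of EGFRvIII. The 10 genes listed were Hsph1, Hspa8, Hsp90aa1, Hsp90ab1, Dnajb1, Hspb1, Hspd1, Hspe1, Hspa4 and Hsf1, and a gene was measured where a probe set of the array was paired with its symbol alone. This held for 8 of the 10, among 19938 genes in all, while Hsp90ab1 and Hsf1 are not analysed here. Where a gene had several probe sets, the one with the highest mean over the 12 arrays was used.

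Both tumor types came from neural progenitor cells of Ink4a/Arf null mice that had been transduced with human EGFRvIII, a receptor variant that signals without ligand. Each tumor type was 1 line derived from that pool, grown as an intracranial tumor and then as tumorspheres, and 2 µl at 200000 cells per µl were injected intracranially into FVB hosts. Cells tagged with ZsGreen were sorted into 6 samples of each type near the median survival of that type, which was earlier for pEGFR-Hi, so tumor line and time after injection cannot be told apart, and differences between the lines rest on 1 line each. RNA was hybridized to Affymetrix Mouse Gene 1.0 ST arrays, with 1 array per sample, and values are on the log2 scale after RMA, which sets the distribution of values equal across arrays. Brains of 6 mice of each type were taken, as many as there are arrays, but the labels do not tie each sample to a mouse, and p-values measure the spread between these samples.

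Heat shock proteins are chaperones that hold, fold and disaggregate other proteins. HSP70 proteins bind exposed stretches of a client, J domain proteins bring clients to HSP70 and start its ATP cycle, and HSP110 proteins end the cycle by exchanging the nucleotide. HSP90 then matures many signaling kinases, mutant EGFR among them, small heat shock proteins hold unfolded clients, and the chaperonin of HSP60 and HSP10 folds proteins inside mitochondria. Under heat or other stress the factor HSF1 binds repeats of the letters GAA and their complement in the promoters of many of these genes and raises their transcripts.

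Promoter sequences from RefSeq (GRCm38.p6), from 250 bases before to 50 bases after a transcript start, were at hand for 6 of the 10 genes, and they are shown because the measured members carry the letters of such heat shock elements to different degrees. A pair of units was searched as GAANNTTC or TTCNNGAA, and a run of 3 units as GAA and TTC in turn with any 2 bases between them, starting with either. Both forms cover both strands, and each run of 3 units holds 2 overlapping pairs. Pairs stood in 15.1% of all 32851 windows and runs of 3 units in 0.603%. In the stretches below, written 5′ to 3′ on the strand of the gene, capitals mark the GAA and TTC letters of matched pairs before the start. The Hspe1 stretch is chr1:55088039-55088096 on the + strand. Hspd1 is transcribed away from Hspe1 on the - strand and has 2 annotated starts: the stretch lies upstream of one of them and inside the gene, downstream of the other, whose window held no match. The Hsph1 stretch is chr5:149636342-149636389 on the - strand, and the Hspb1 stretch is chr5:135887782-135887849 on the + strand.
Hspe1: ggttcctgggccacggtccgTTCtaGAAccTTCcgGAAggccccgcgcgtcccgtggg
Hsph1: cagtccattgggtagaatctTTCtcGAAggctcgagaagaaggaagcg
Hspb1: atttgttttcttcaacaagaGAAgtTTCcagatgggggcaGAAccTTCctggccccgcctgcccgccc

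The Hspe1 stretch held 4 alternating units without a gap, beginning 89 bases before the Hspe1 start, and on the other strand the same units begin 144 bases before the first-named of these Hspd1 starts. Hspb1 held separate pairs that begin 117 and 97 bases before its start. Hsph1 held a pair that begins 33 or 54 bases before its start, depending on which of its annotated starts is taken, and also a run of 3 units just after the start. No match stood in the windows of Dnajb1 or Hspa4, which says only that these letters are not in these windows.

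Before the comparison, array medians, background and cell type markers were looked at. These values do not check which tumor type a sample came from. Array medians lay between 4.81 and 4.88. Background was taken as 4.10, below which 95% of 1027 olfactory receptor genes had their mean, and all 8 measured heat shock genes lay above it on each of the 12 arrays. The tumor progenitor markers Nes, Sox2, Olig2, Egfr and Vim were all above background, with a list mean of 9.28 to 9.45 in pEGFR-Hi and 9.19 to 9.34 in pEGFR-Lo. Cdkn2a, the gene of the Ink4a/Arf locus deleted in the parental cells of both lines, lay between 5.07 and 5.43 in pEGFR-Hi and between 5.24 and 5.63 in pEGFR-Lo. The exons covered by its probes are not known here, so this value does not check the deletion. Of markers of other cell types, 6 of 10 of microglia and macrophages, 4 of 7 of neurons, 2 of 5 of oligodendrocytes and 2 of 6 of endothelial cells had a mean over the 12 arrays above background. So did 4 of 5 of astrocytes, 3 of 4 of pericytes, 2 of 4 of T cells and the 1 measured of red blood cells. Those not above it were Aif1, Csf1r, Itgam and Ptprc of microglia and macrophages, Snap25, Slc17a7 and Gad2 of neurons, Mog, Mag and Mobp of oligodendrocytes and Pecam1, Tek, Cdh5 and Kdr of endothelial cells. Also not above it were Aldh1l1 of astrocytes, Pdgfrb of pericytes and Cd3g and Cd4 of T cells. Snap25 was nevertheless above background on all pEGFR-Lo arrays, at 4.15 to 4.55 against 3.44 to 3.75 in pEGFR-Hi, and the mean of Kdr in pEGFR-Hi was 4.20.

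Of the 8 heat shock genes, 1 was higher in pEGFR-Hi, 1 was higher in pEGFR-Lo and 6 were not called. The small heat shock protein Hspb1 was 2.56-fold higher in pEGFR-Hi, and the HSP110 protein Hsph1 was 2.21-fold higher in pEGFR-Lo. The cytosolic HSP70 and HSP90 proteins Hspa8 and Hsp90aa1, the mitochondrial chaperonin genes Hspd1 and Hspe1, the HSP110 relative Hspa4 and the J domain protein Dnajb1 did not pass the test. A gene was called at an adjusted p under 0.01 from limma, with Benjamini-Hochberg adjustment over all genes, and a difference of at least 2-fold. At these limits 3.99% of all genes were called toward pEGFR-Hi and 5.06% toward pEGFR-Lo, 9.05% together. Among the 13519 genes above background the share was 13%. At an adjusted p below 0.05 and any fold the same 2 members passed, 1 in each direction, against 19.4% of all genes toward pEGFR-Hi and 16.6% toward pEGFR-Lo, 36% together and 49.6% of those above background. The median difference of the members was -0.03 on the log2 scale beside 0.01 for all genes.

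**Figure D1:**
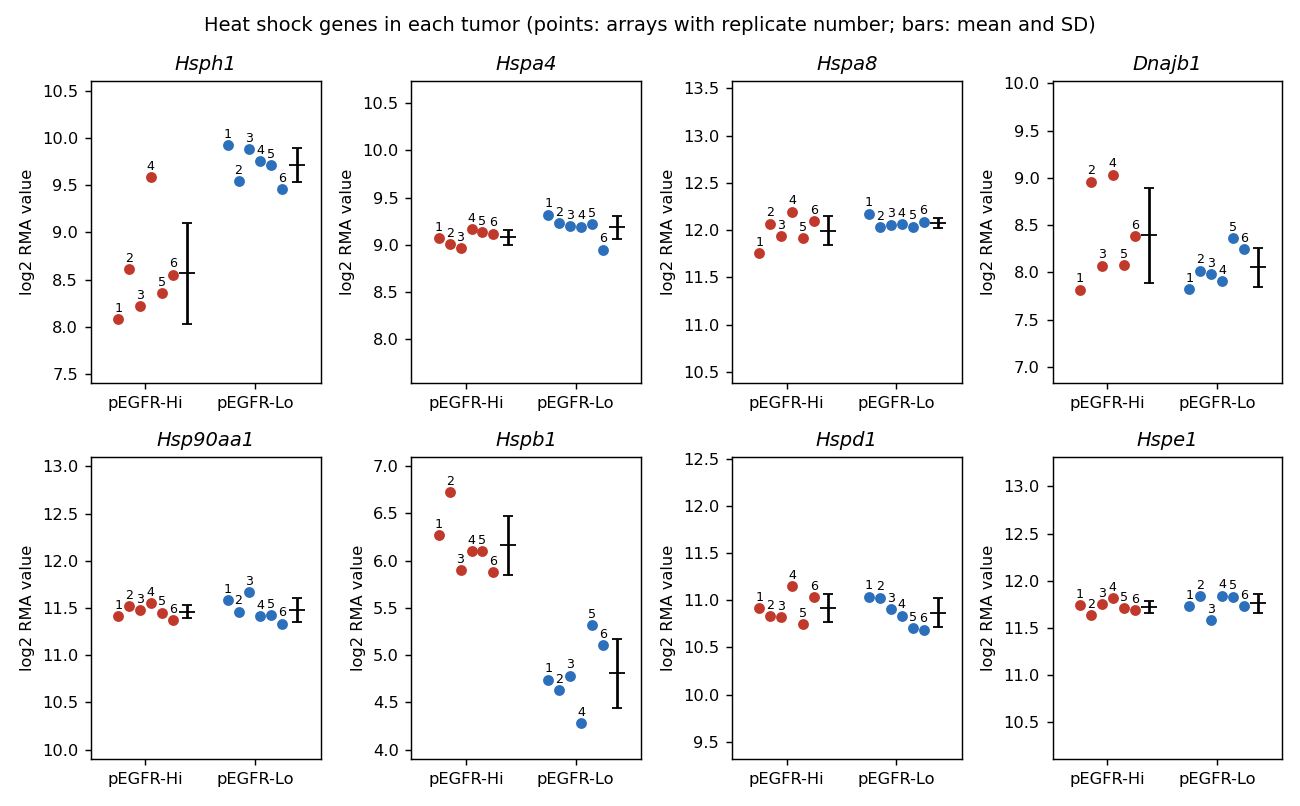
Log2 RMA values (y axis, each panel spanning the same range of log2 units) of 8 heat shock genes in tumor cells of each type (x axis). Each numbered point is 1 array, and bars beside each group show the mean and SD of its 6 arrays. The groups are apart in Hspb1, and in Hsph1 they are apart but for pEGFR-Hi replicate 4 at 9.58.

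Hsph1, the HSP110 nucleotide exchange factor of HSP70, was at 8.08, 8.61, 8.22, 9.58, 8.36 and 8.55 in pEGFR-Hi replicates 1 to 6. In pEGFR-Lo replicates 1 to 6 it was at 9.92, 9.54, 9.88, 9.75, 9.71 and 9.46. Of the pEGFR-Hi arrays 5 lay below all pEGFR-Lo arrays, while replicate 4 lay within the pEGFR-Lo range, so the groups overlapped through this single array. The group means were 8.57 ± 0.54 and 9.71 ± 0.18 (SD, n = 6 arrays each), a log2 difference of -1.14 with a standard error of 0.20 (95% interval -1.56 to -0.73, adjusted p = 2.01e-04 from limma). Without pEGFR-Hi replicate 4 the difference was -1.35 (adjusted p = 3.31e-07 from limma). The call was lost when only the even replicates of both groups were used, at -0.67 (adjusted p = 0.0886 from limma), and among the odd replicates alone the difference was -1.62 (adjusted p = 3.00e-05 from limma).

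Hspa4, the other HSP110 protein among the members, was between 8.97 and 9.17 in pEGFR-Hi with a median of 9.10, and between 8.95 and 9.32 in pEGFR-Lo with a median of 9.21. The groups overlapped, and the log2 difference was -0.11 with a 95% interval from -0.27 to 0.06 (adjusted p = 0.332 from limma), so a difference beyond 1.21-fold lay outside the interval. The difference of Hsph1 therefore stood beside a difference of this relative whose interval included 0. Hspa4l and Hyou1, relatives that are no members, leaned the other way, toward pEGFR-Hi, without being called. The log2 difference was 0.27 for Hspa4l (95% interval 0.05 to 0.50, adjusted p = 0.0572 from limma). For Hyou1 it was 0.30 (95% interval 0.11 to 0.50, adjusted p = 0.0162 from limma).

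Hspa8, the constitutive HSP70 of the cytosol, was at 11.76, 12.07, 11.94, 12.20, 11.92 and 12.10 in pEGFR-Hi replicates 1 to 6 and between 12.03 and 12.17 in pEGFR-Lo. The range of pEGFR-Hi took in that of pEGFR-Lo, with an SD of 0.16 in pEGFR-Hi and 0.05 in pEGFR-Lo (n = 6 arrays each). The log2 difference was -0.08 (95% interval -0.25 to 0.09, adjusted p = 0.508 from limma).

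Dnajb1, a heat-inducible J domain partner of HSP70, was at 7.82, 8.96, 8.07, 9.03, 8.08 and 8.38 in pEGFR-Hi replicates 1 to 6. In pEGFR-Lo replicates 1 to 6 it was at 7.82, 8.02, 7.98, 7.90, 8.36 and 8.25. In pEGFR-Hi replicates 2 and 4 it was higher than on any pEGFR-Lo array by more than 0.5 on the log2 scale, and the other pEGFR-Hi arrays lay in or near the pEGFR-Lo range. The group means were 8.39 ± 0.50 and 8.06 ± 0.21 (SD, n = 6 arrays each), and the log2 difference of 0.34 did not pass the test (95% interval -0.07 to 0.74, adjusted p = 0.198 from limma). Without these 2 arrays, a choice made after seeing the data, it was 0.03 (adjusted p = 0.894 from limma). Among even replicates alone it was 0.74 (adjusted p = 0.0167 from limma, not called), and among odd replicates alone -0.06.

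Hsp90aa1, the stress-inducible cytosolic HSP90, was between 11.37 and 11.55 in pEGFR-Hi and between 11.33 and 11.67 in pEGFR-Lo. The log2 difference was -0.02 with a 95% interval from -0.18 to 0.14 (adjusted p = 0.90 from limma), which leaves at most 1.13-fold in either direction. Its sign turned under other scalings, to 0.07 with a further quantile normalization and to 0.037 with cyclic loess. In pEGFR-Lo replicate 3 it was the highest of all 12 arrays and in pEGFR-Lo replicate 6 the lowest, and these are the pEGFR-Lo arrays with the lowest mean of 18 interferon-stimulated genes, at 5.20 and 5.22 against 6.34 to 6.92 in the other pEGFR-Lo arrays.

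Hspb1, the small heat shock protein also known as HSP27, was at 6.27, 6.72, 5.90, 6.10, 6.11 and 5.88 in pEGFR-Hi replicates 1 to 6. In pEGFR-Lo replicates 1 to 6 it was at 4.74, 4.63, 4.78, 4.28, 5.32 and 5.11. It was the only measured member whose groups did not overlap, beside 12.2% of all genes in this direction, 11.1% in the other and 23.3% together. The group means were 6.16 ± 0.31 and 4.81 ± 0.37 (SD, n = 6 arrays each), a log2 difference of 1.35 with a standard error of 0.17 (95% interval 0.99 to 1.71, adjusted p = 8.47e-06 from limma). The pEGFR-Lo mean was 1.63-fold above background. Without pEGFR-Lo replicates 3 and 6 the log2 difference between the groups was 1.42 (adjusted p = 5.35e-05 from limma).

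Hspd1 and Hspe1 encode HSP60 and HSP10, which together form the folding chamber of mitochondria, and the Hspe1 stretch printed above lies upstream of Hspe1 and of one of the Hspd1 starts. Hspd1 was between 10.75 and 11.15 in pEGFR-Hi with a median of 10.87 and between 10.69 and 11.04 in pEGFR-Lo with a median of 10.87. Hspe1 was between 11.64 and 11.82 in pEGFR-Hi and between 11.59 and 11.84 in pEGFR-Lo. Neither gene separated the groups: the log2 difference was 0.05 for Hspd1 (95% interval -0.15 to 0.24, adjusted p = 0.754 from limma) and -0.04 for Hspe1 (95% interval -0.19 to 0.11, adjusted p = 0.751 from limma). Differences beyond 1.19-fold for Hspd1 and 1.14-fold for Hspe1 lay outside these intervals.

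**Figure D2:**
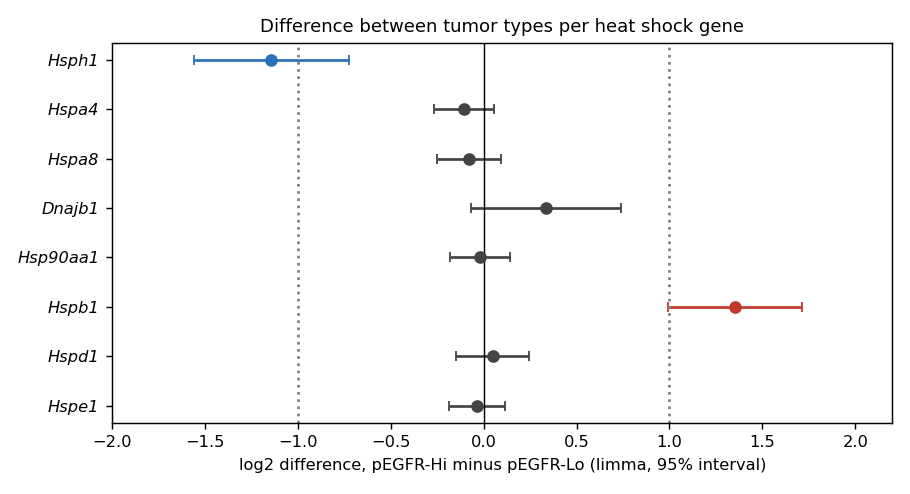
Log2 difference, pEGFR-Hi minus pEGFR-Lo (x axis), for each of the 8 heat shock genes (y axis). Points are limma estimates from 6 arrays per group with 95% intervals, dotted lines mark 2-fold, and colored points were called. Hsph1 at -1.14 and Hspb1 at 1.35 lie on opposite sides of 0, and the intervals of the other 6 genes include 0.

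Probe sets of the same gene gave log2 differences within 0.0452 of each other. For the 5 members with several probe sets the log2 difference ranged over probe sets from 1.35 to 1.36 for Hspb1, from -0.08 to -0.03 for Hspa8 (3 probe sets), from -0.02 to -0.0079 for Hsp90aa1 (3 probe sets), from 0.02 to 0.05 for Hspd1 and from -0.0414 to -0.0371 for Hspe1. Genes of this kind have many near-identical processed copies in the mouse genome, and signal from such copies cannot be separated from that of the gene itself. Dnajb1, Hspa4 and Hsph1 had 1 probe set each.

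Some arrays lay far from the rest of their group. In pEGFR-Hi, replicate 4 was the highest of the 6 pEGFR-Hi arrays in 7 of the 8 members, all but Hspb1, with Hsph1 1.02 above its group mean and Dnajb1 0.64 above. The share of all genes highest on this array was not counted. Wider lists, some holding members, also had their highest pEGFR-Hi mean there: J domain proteins (7.23), co-chaperones (8.80), chaperonins (9.64), HSP90 (10.54) and endoplasmic reticulum chaperones (9.35). Small heat shock proteins and heat shock factors did not. Replicate 2 was 0.57 above the mean in Dnajb1 and 0.56 above in Hspb1 but 0.04 above in Hsph1. Replicate 1 was 0.57 below the mean in Dnajb1, 0.48 below in Hsph1 and 0.24 below in Hspa8. In pEGFR-Lo the deviations of Hsph1 stayed between -0.25 and 0.21 and those of Dnajb1 between -0.23 and 0.30, while replicate 6 was the lowest of its group in 4 members. By Dixon's ratio of the gap at one end to the range, 2 of 16 combinations of gene and group passed the 95% critical value for 6 samples: Hsph1 in pEGFR-Hi replicate 4, and Hspa4 in pEGFR-Lo replicate 6 at 8.95.

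**Figure D3:**
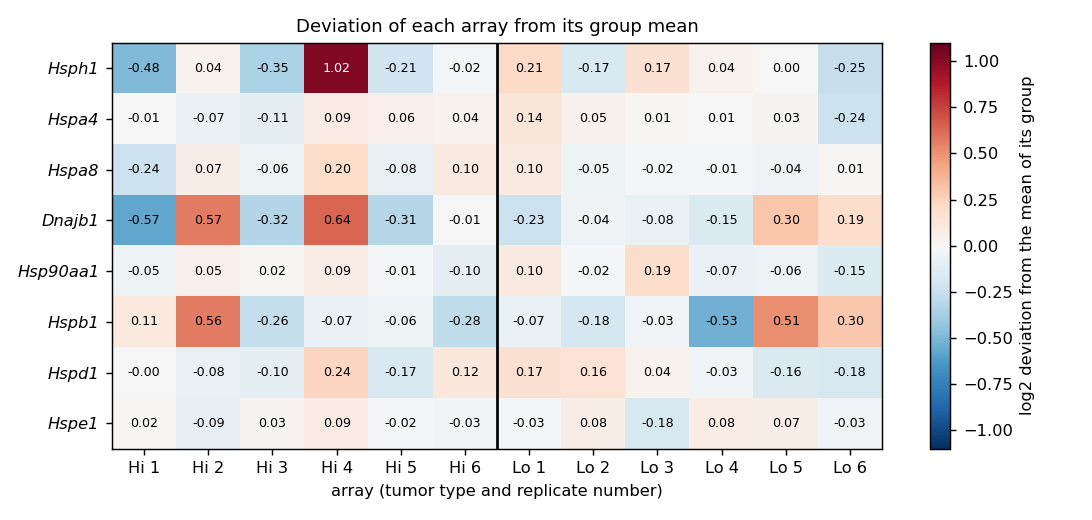
Deviation of each array from the mean of its group (color and printed value, log2 units) for 8 heat shock genes (y axis) on the 12 arrays (x axis). pEGFR-Hi replicate 4 is the highest of its group in 7 genes, with Hsph1 1.02 above its group mean.

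The members differed widely in their spread within pEGFR-Hi. The SD of Hsph1 among pEGFR-Hi arrays was larger than that of 98.7% of the 13519 genes above background, and that of Dnajb1 was larger than 98.4%. In pEGFR-Lo the corresponding shares were 48.2% and 59.7%. Hspe1, Hsp90aa1 and Hspa4 were among the steadiest genes in pEGFR-Hi, with an SD larger than only 3.57%, 4.76% and 7.69% of these genes, and Hspd1 and Hspa8 lay between, at 42.2% and 44.7%. The SD of Hspb1 was larger than 90.5% in pEGFR-Hi and 92.1% in pEGFR-Lo. In pEGFR-Lo the SD of Hspa8 exceeded that of 1.06%. The SD of Hsph1 in pEGFR-Hi includes replicate 4, at 9.58 against 8.08 to 8.61 on the other pEGFR-Hi arrays. These shares compare genes of all levels, without matching on level. Whether the spread differed between the tumor types was not tested.

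Hspa1a, the classical heat-inducible HSP70 and no member of the list, was looked at after the values of Dnajb1 were seen. It was at 7.05, 8.59, 7.18, 8.01, 7.57 and 7.46 in pEGFR-Hi replicates 1 to 6 and between 7.30 and 7.91 in pEGFR-Lo. Replicates 2 and 4 were thus the highest pEGFR-Hi arrays in Hspa1a as well, and the difference between the groups was 0.04 on the log2 scale (adjusted p = 0.924 from limma). Hspa1a and Hspa1b are nearly identical, and signal of the pair cannot be separated.

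Within pEGFR-Hi, replicates 1, 3 and 5 lay below replicates 2, 4 and 6 in Hsph1 (8.08 to 8.36 against 8.55 to 9.58), in Dnajb1 (7.82 to 8.08 against 8.38 to 9.03) and in Hspa8 (11.76 to 11.94 against 12.07 to 12.20). Such a separation in this direction was found in 6.32% of all genes, and the opposite one in 6.36%. The mean of the interferon-stimulated genes ran the other way, at 8.42 to 8.98 in replicates 1, 3 and 5 and at 7.82 to 8.04 in replicates 2, 4 and 6. What distinguishes odd from even replicates is not given in the labels, and its part in these values was not tested.

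Members were also compared array by array after the group means were removed. Of 28 pairs of members 19 had a positive correlation over the 12 arrays, 6 reached an unadjusted p under 0.05 in a two-sided permutation test that shuffled arrays within groups, and 0 passed after Benjamini-Hochberg adjustment over the 28 pairs. The pair with the smallest p was Hsph1 with Hspa8, with a Pearson r of 0.81 (permutation p = 0.00999, adjusted p = 0.214) and a Spearman rho of 0.73 (permutation p = 0.0182, adjusted p = 0.388). Without pEGFR-Hi replicates 1 and 4, the arrays farthest from the median of Hsph1, r was 0.64 (permutation p = 0.081). For Hsph1 with Dnajb1, r was 0.67 (permutation p = 0.0493, adjusted p = 0.225), rho was 0.54 (permutation p = 0.117, adjusted p = 0.469) and r without the same 2 arrays was 0.19. The signs differed between the groups, with an r of 0.84 within pEGFR-Hi and -0.58 within pEGFR-Lo. The pooled relation thus did not hold without these 2 pEGFR-Hi arrays. Over 13518 other genes above background, the deviations most like those of Hsph1 were those of Banp (r = 0.94, rho = 0.83), D030056L22Rik (0.93 and 0.85), Bend4 (0.92 and 0.72), Ufm1 (0.90 and 0.77) and D830013O20Rik (0.90 and 0.65), given as a description of the best among many, with a median r of 0.01 over all. Without pEGFR-Hi replicates 1 and 4 the r of these genes was 0.91, 0.85, 0.63, 0.59 and 0.61 in the same order.

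Among the chaperones and co-chaperones at large, few genes were called. Of 120 measured genes in lists of chaperone families, co-chaperones, heat shock factors and heat-inducible genes, 3 were called toward pEGFR-Hi and 2 toward pEGFR-Lo, 4.17% together beside 9.05% of all genes, and their median difference was 0.05. Beside Hspb1 and Hsph1, these were Hspb8, Bag2 and Serpinh1. Hspb8, a small heat shock protein of selective autophagy, was higher in pEGFR-Lo, opposite to Hspb1. It was at 7.39 ± 0.80 against 4.17 ± 0.17 in pEGFR-Hi (SD over 6 arrays). The log2 difference was -3.21 (95% interval -3.80 to -2.62, adjusted p = 1.34e-07 from limma), and the interval reached down to 6.16-fold. Of its 6 pEGFR-Hi arrays 3 were not above background. With those arrays raised to the background level, the estimated difference was 9.07-fold. Bag2, a nucleotide exchange factor of HSP70 like Hsph1, was 2.03-fold higher in pEGFR-Hi (7.03 to 7.83 against 5.90 to 6.57, adjusted p = 1.83e-05 from limma). It lay at the fold limit and fell short of it without pEGFR-Hi replicate 4 (log2 difference 0.92), pEGFR-Lo replicate 1 (0.95) or pEGFR-Lo replicate 3 (0.98), and also with quantile normalization (0.99), cyclic loess (0.93) or array weights (0.9979), without pEGFR-Lo replicates 3 and 6 (0.9946) and without pEGFR-Hi replicates 2 and 4 (0.93). Serpinh1, the collagen chaperone HSP47, was 14.9-fold higher in pEGFR-Hi (8.21 to 9.38 against 4.51 to 5.13, adjusted p = 1.64e-10 from limma).

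By family, 1 of 14 HSP70 and HSP110 genes was called toward pEGFR-Lo (Hsph1), and of 10 small heat shock proteins 1 was called in each direction (Hspb1 and Hspb8). Of 28 co-chaperones 1 was called toward pEGFR-Hi (Bag2). None of 3 HSP90 genes, 47 J domain proteins, 11 chaperonins, 5 heat shock factors or their partners, or 24 chaperones and sensors of the endoplasmic reticulum was called by limma or by SAM. At an unadjusted p below 0.05 from limma, which 23% of all genes passed toward pEGFR-Hi and 19.8% toward pEGFR-Lo, 12 J domain proteins passed toward pEGFR-Hi and 7 toward pEGFR-Lo, of which 11 and 2 passed at an adjusted p below 0.05. The unadjusted counts toward pEGFR-Hi and pEGFR-Lo were 6 and 2 for HSP70 and HSP110 genes, 11 and 1 for co-chaperones and 2 and 2 for small heat shock proteins. They were 0 and 0 for HSP90 genes, 2 and 2 for chaperonins, 0 and 2 for heat shock factors and 6 and 1 for the endoplasmic reticulum list. At an adjusted p below 0.05 from limma the counts were 3 and 2 for HSP70 and HSP110 genes and 8 and 1 for co-chaperones. At that limit 19.4% of all genes passed toward pEGFR-Hi and 16.6% toward pEGFR-Lo. Of 22 heat-inducible genes, 2 were called toward each tumor type (Serpinh1 and Hspb1, and Hspb8 and Hsph1). Their mean level overlapped between the groups, at 8.87 to 9.26 in pEGFR-Hi and 8.89 to 9.16 in pEGFR-Lo. List means of the other families overlapped too, except 2. The co-chaperone mean was 8.61 to 8.80 in pEGFR-Hi and 8.45 to 8.60 in pEGFR-Lo. That of heat shock factors and partners, 3 of 5 above background, was 6.03 to 6.18 and 6.19 to 6.43.

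**Figure D4:**
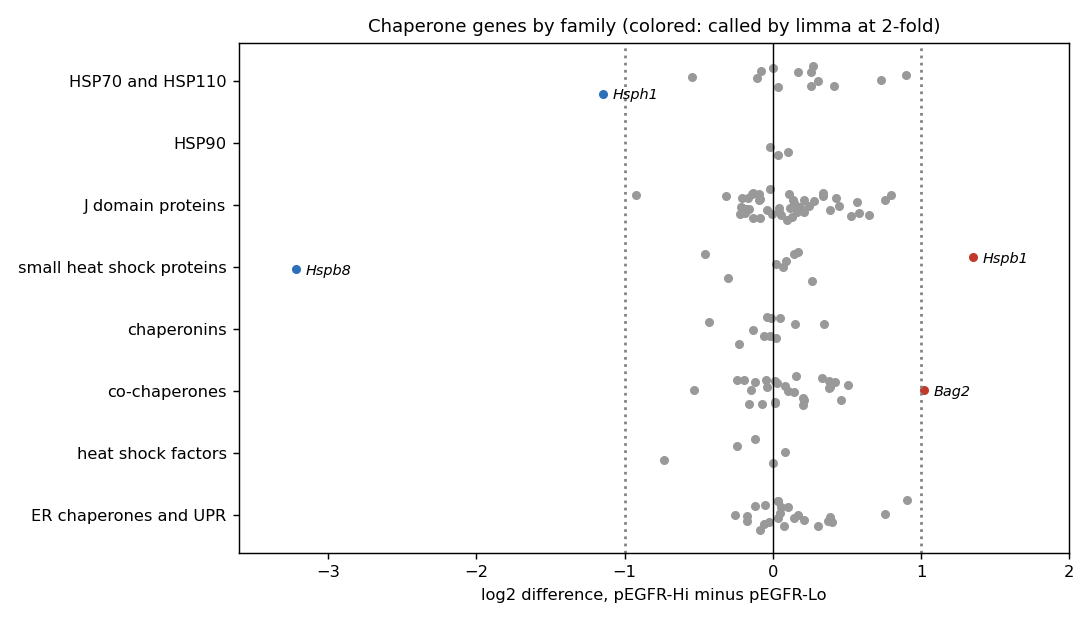
Log2 difference, pEGFR-Hi minus pEGFR-Lo (x axis), for the measured genes of 8 chaperone families and groups (y axis; ER, endoplasmic reticulum; UPR, unfolded protein response). Each point is 1 gene, spread vertically for legibility, dotted lines mark 2-fold and named colored points were called. Hspb8 at -3.21 and Hspb1 at 1.35 are the called small heat shock proteins, and most other points lie between the dotted lines.

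Other lists moved with the groups beside these values. The mean of 23 genes of cell dissociation and the immediate-early response was 8.65 to 8.88 in pEGFR-Hi and 7.77 to 8.17 in pEGFR-Lo. Of these genes 9 were called toward pEGFR-Hi and 0 toward pEGFR-Lo by limma and by SAM (1 toward pEGFR-Lo at an unadjusted p below 0.05 from limma). In pEGFR-Hi replicates 1 to 6 this mean was 8.65, 8.88, 8.65, 8.68, 8.86 and 8.66, and Hspa1a is part of the list. Of 18 interferon-stimulated genes 15 were called toward pEGFR-Hi. The 5 astrocyte markers had a summed linear level of 816 to 1307 in pEGFR-Hi and 474 to 846 in pEGFR-Lo, with Gfap 2.69-fold higher in pEGFR-Hi and Slc1a2 and Gja1 called toward pEGFR-Lo. The mean of these markers on the log2 scale ran the other way, at 5.18 to 5.77 in pEGFR-Hi and 5.81 to 6.63 in pEGFR-Lo. The summed level was 68 to 77 in pEGFR-Hi against 101 to 512 in pEGFR-Lo for 4 pericyte markers, of which Rgs5 was called toward pEGFR-Lo, and 140 to 160 against 167 to 219 for 7 neuron markers. It was 88 to 139 against 85 to 97 for 6 endothelial markers, 231 to 298 against 245 to 314 for 10 microglia and macrophage markers (Cd68 called toward pEGFR-Hi and P2ry12 toward pEGFR-Lo), 90 to 100 against 95 to 173 for 5 oligodendrocyte markers, and 60 to 76 against 61 to 75 for 4 T cell markers. Alas2, the red blood cell marker measured, was at 18 to 28 against 14 to 25. In sorted cells, a change in the share of another cell type and a change of RNA per tumor cell cannot be told apart. The part of these lists in the values of the heat shock genes was not tested.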

How the data were processed

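The authors deposited log2 values, made with RMA in Expression Console (Affymetrix) from 12 Mouse Gene 1.0 ST arrays, 6 per tumor type. RMA corrects background, equalizes the distributions and summarizes each probe set, and this hides any change in RNA amount per cell. The version and genome build are not given in the sources used here. Of 35556 probe sets, 21789 were paired with 1 symbol, updated through Entrez ID to the GRCm38.p6 annotation where matched (21698). The brightest probe set per gene was kept, which gave 19938 genes, 13519 of them above background.

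All genes were fitted with limma 3.58.1 in R 4.3.3 without a block, and p-values reflect spread among samples of 1 line per type. SAM, the test the paper names, was an alternative, with 100 permutations a false discovery rate of 1% and the same fold limit. Other alternatives were further normalizations, a filter on dim genes, the replicate block, variance models, array weights, a looser call rule, the mean of probe sets, and sets of arrays left out. On simulated arrays for pEGFR-Hi against pEGFR-Lo over 19938 genes, limma called 100 of 100 genes set 1.5 apart (log2) and 98 of 100 set 2 apart, SAM called 100 and 100, and neither called an unchanged gene. The noise was drawn for each gene on its own, without shifts shared by arrays, and the set differences exceeded those of Hsph1 and Hspb1. These counts therefore check that the code runs as meant and do not test the calls made here. Correlations used 100000 within-group permutations (20000 without 2 arrays). Figures were drawn with matplotlib 3.10.9 in Python 3.11.15. No per-sample column was left unmapped.

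The members and gene lists were chosen with earlier results of these data known. Named genes are all members, the called genes of the chaperone lists, Cdkn2a, the 5 genes most like Hsph1 and cell type markers. Of each list, up to 4 called genes that are no members in the direction with more calls and up to 2 in the other could be named. Hspa1a, Hsbp1, Hspa14, Hspa4l and Hyou1 were chosen after their values were seen. The number of arrays limits the precision.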

Additional observations from a re-analysis of the deposited data

Results flagged for a closer look

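In pEGFR-Hi replicate 4, Hsph1 was at 9.58, while the nearest of the other pEGFR-Hi arrays was at 8.61, and this gap made up 0.65 of the range of the group. In pEGFR-Lo replicate 6, Hspa4 was at 8.95, while the nearest of the other pEGFR-Lo arrays was at 9.19, and this gap made up 0.657 of the range. Both arrays were marked because a single array lay far from the rest of its group. Of 16 combinations of gene and group 2 were marked, and chance marks about 1 in 20.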

How the results depend on the processing

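The calls of Hspb1 and Hsph1 kept their direction under all alternatives run, and both stayed called except Hsph1 among even replicates only, where 0 members were called toward pEGFR-Lo and 1 of the 120 chaperone genes was (main counts 1 and 2). Leaving out 1 array at a time, the difference was -1.35 to -1.05 for Hsph1 and 1.24 to 1.46 for Hspb1. With the replicate block it was -1.14 for Hsph1 (adjusted p = 0.000571 from limma), and it changed no call of a member. The numbers share no stated origin: same-numbered arrays correlated from -0.18 to 0.12, and 1 of 6 pEGFR-Hi arrays correlated best with its own number. At an adjusted p below 0.05 and any fold, 3871 and 3314 genes, and 26 and 10 chaperone genes, were called toward pEGFR-Hi and pEGFR-Lo. Signs of values near 0 turned: Hsp90aa1 was 0.0691 with quantile normalization, 0.037 with cyclic loess, 0.0052 with median centring, 0.0757 among even replicates and -0.0467 to 0.0206 with 1 array left out. Hspe1 was 0.0673 with quantile normalization, 0.026 with cyclic loess and 0.016 among odd replicates. Hspa8 was 0.0587 among even replicates, and Hspd1 was -0.0585 among odd replicates. Dnajb1, not near 0 at 0.34 with all arrays, depended on the replicates used, at -0.0645 among odd and 0.74 among even replicates. The cause was not tested. The runs of 3 units stood in 3 and pairs in 4 of the 6 members with a promoter, beside 0.662% and 17% of all genes. Hspd1 and Hspe1 were both counted for the same bases. The count of single arrays apart stayed at 2 with median centring and with the mean of probe sets.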

Other observations

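Some genes of the chaperone and heat shock factor lists separated the groups at less than 2-fold. Of all genes, 23.3% had groups without overlap, at any fold. The genes given here were chosen after their values were seen, and further genes of these lists separated the groups as well. Hsbp1, which encodes a small protein that binds the trimer of heat shock factor 1, was between 11.27 and 11.37 in pEGFR-Hi and between 11.94 and 12.15 in pEGFR-Lo, a 1.67-fold difference toward pEGFR-Lo with no overlap (adjusted p = 2.31e-07 from limma). Hspa14, an HSP70 protein bound to the ribosome, was between 8.26 and 8.55 in pEGFR-Hi and between 7.48 and 7.83 in pEGFR-Lo, a 1.66-fold difference toward pEGFR-Hi (adjusted p = 2.16e-06 from limma).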
